A study of Mus musculus with 16 samples.

Results

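Cholesterol synthesis in the liver was followed through 27 genes chosen by name: 20 enzymes from acetyl-CoA to cholesterol, 6 genes that control the transcription factor SREBP2, and the sterol carrier Stard4. All 27 were found by symbol among the 46078 genes of the count table, and all 27 were among the 12910 genes that had enough counts to be tested. The study measured liver messenger RNA in 16 C57BL/6 mice aged 22 weeks, all with diet-induced obesity and steatosis, in 4 groups of 4 animals. The Saline control mice received vehicle. The Semaglutide mice received an agonist of the glucagon-like peptide-1 receptor, the Dicretin mice received a co-agonist of that receptor and of the glucagon receptor, and the Calorie restricted mice were fed less until they had lost a similar weight, as the series' design text states. Doses, treatment length and sex are not given in the sources used here, and every group shares the obese, steatotic background, so no lean liver is available for reference. Each library is named by its group and the number in its label.

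The liver makes cholesterol in the cytosol and the endoplasmic reticulum. Acetyl-CoA is condensed and reduced to mevalonate, mevalonate is turned into isoprenoid units, and these are joined to squalene, closed to lanosterol and trimmed to cholesterol. The pathway is run mainly by SREBP2, a membrane-bound transcription factor. When membrane sterol is low, the escort protein SCAP carries SREBP2 to the Golgi, where proteases release its active part. When sterol is plentiful, the INSIG proteins hold SCAP back.

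Library totals ranged from 12.144 to 18.755 M counts, and levels are given as CPM, counts brought to a common library total after TMM scaling. No pair of libraries was identical. Hepatocyte markers summed to 68900 to 87970 CPM in Dicretin and to 93950 to 141400 CPM in the other groups. The labelled tissue thus matched its markers. Of the 5 tested, 1 was lower in Dicretin than in saline, 2 than in calorie restriction and 3 than in Semaglutide. Beside these, 19.2%, 16.2% and 17.1% of all genes tested were lower. In whole liver, fewer cells of a type and less RNA per cell cannot be told apart. Of 8 Kupffer cell and macrophage markers, 6 were higher in Dicretin than in calorie restriction and 2 were higher than in Semaglutide. Of all genes tested, 15.1% and 14.8% were higher in these comparisons. In Dicretin against saline 0 of the 8 were higher and 0 lower, and 1 was lower in calorie restriction than in saline. The 8 markers summed to 161.1 to 478.6 CPM in Dicretin, 175.3 to 242.4 in saline, 84.1 to 240.2 in Semaglutide and 53.9 to 182.1 in calorie restriction. Exocrine pancreas markers summed to 688 CPM in Dicretin 64 and to at most 6.68 CPM elsewhere, and adipocyte markers were at most 0.838 CPM in any library. The part of these cells in the differences below was not tested.

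Calorie restricted 79 stood apart from its group in this pathway. It held the highest level of its group for 24 of the 27 genes and the highest of all 16 libraries for 20 of them. For 9 genes it was at least 2 times its highest group mate, and its median ratio to the mean of the other 3 livers was 1.76. The ratio was 5.56 for Sqle, 4.2 for Idi1, 3.85 for Msmo1 and 3.8 for Hmgcs1, and it was 1.19 for Ebp and 0.781 for Mbtps2. For the 27 genes, called differences from calorie restriction are therefore also given without this liver. The spread between animals within calorie restriction was also wide for this pathway: the SD of log2 CPM had a median of 0.457 over the 27 genes and of 0.234 over all genes tested. In saline these medians were 0.254 and 0.201, in Semaglutide 0.452 and 0.336, and in Dicretin 0.396 and 0.369.

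**Figure D1:**
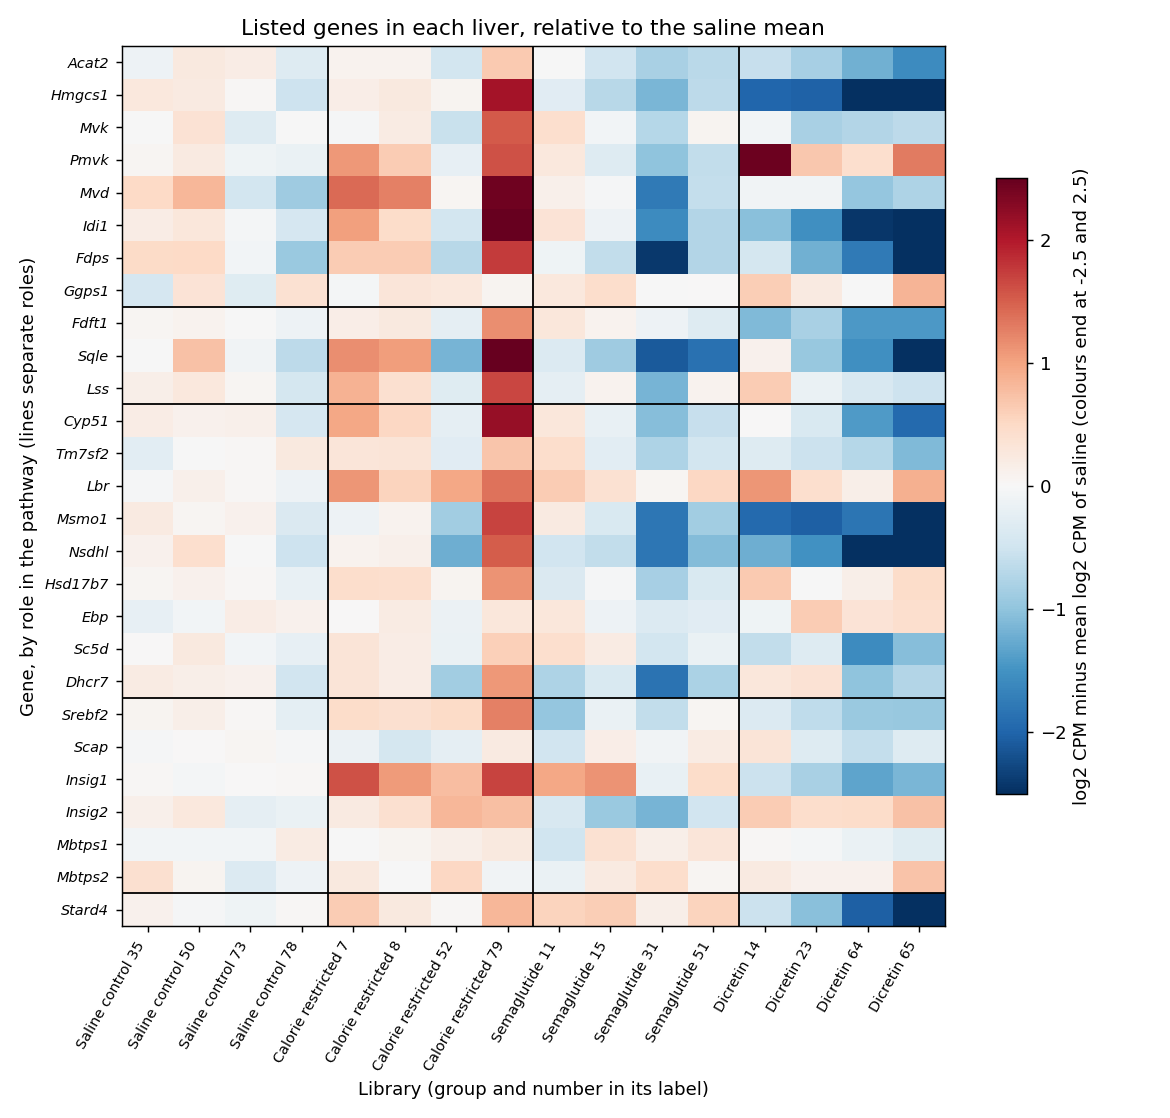
Colour shows the log2 CPM of each of the 27 genes (rows, grouped by role) in each of the 16 libraries (columns), minus the mean log2 CPM of the saline group, with colours ending at -2.5 and 2.5. Most enzyme rows are blue in the 4 Dicretin livers and red in Calorie restricted 79, while Pmvk, Lbr and Insig2 are red in Dicretin.

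Dicretin against saline compares the co-agonist with vehicle. Drug action and weight loss cannot be told apart in it. Of the 27 genes, 11 fell and 3 rose, and 13 did not pass. Over all genes tested 19.2% were lower and 17.5% were higher in this comparison. The listed genes were above that background for falls, with 40.7%, and below it for rises, with 11.1%. The list, like all others here, was chosen with earlier results of these data known. Shares set beside the background are therefore descriptions only. The median log2 fold change was -0.66 over the 27 genes and -0.005 over all genes tested, and 20 of the 27 estimates were below 0. By role, 3 of 8 mevalonate and isoprenoid genes, 1 of 3 squalene and lanosterol genes, 4 of 9 genes from lanosterol to cholesterol, 2 of 6 control genes and the carrier Stard4 fell. The genes that rose were Pmvk, Lbr and Insig2. Here and below, a gene passed at an adjusted p under 0.05 in the quasi-likelihood test of edgeR, with Benjamini-Hochberg adjustment over all genes tested, and log2 fold changes are given ± SE with n = 4 per group. Leaving out Saline control 78 or Dicretin 65 left 1 gene higher in place of 3.

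Semaglutide against saline makes the same comparison for the single agonist, with the same limit. Of the 27 genes, 1 fell (Insig2) and 0 rose. That is 3.7% of the list, near the background of 2.62% lower, and 1.56% of all genes tested were higher. Without adjustment 2 genes were lower and 1 was higher at p under 0.05, and DESeq2 and limma-voom also called 1 lower and 0 higher. The median log2 fold change was -0.32, against 0 over all genes tested. The call for Insig2 was lost when Saline control 35, Saline control 50, Semaglutide 15 or Semaglutide 31 was left out, which left 0 genes lower, and without Semaglutide 31 Insig1 passed as higher.

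Calorie restriction against saline compares mice that were fed less and lost weight with mice that received vehicle. Eating less and weighing less cannot be told apart here. Of the 27 genes, 2 rose (Insig1 and Lbr) and 0 fell, against a background of 3.42% higher and 4.11% lower. At an unadjusted p under 0.05, 12 genes were higher and 0 were lower, and DESeq2 called 5 higher and limma-voom 2, with 0 lower in both. The estimate was above 0 for 26 genes, with a median of 0.51 and a median over all genes tested of -0.01. Without Calorie restricted 79, the same 2 genes were called, at a background of 2.32% higher and 2.7% lower, while the median fell to 0.20 and 6 estimates were below 0 in place of 1. Without Semaglutide 11, which is in neither group but enters the count filter, the scaling and the estimate of spread, 4 genes passed as higher.

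Dicretin against calorie restriction compares the co-agonist with livers at a similar weight loss. Of the 27 genes, 16 were lower and 0 were higher, at a background of 16.2% lower and 15.1% higher. No gene was higher at an unadjusted p under 0.05, and neither DESeq2 nor limma-voom called any higher. The median log2 fold change was -1.09, against -0.003 over all genes tested. Without Calorie restricted 79, 14 genes were lower and 0 higher, at a background of 13.6% lower and 12.1% higher, and the median was -0.93. The 14 were all among the 16, and the calls lost were those of Mvk and Sqle.

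Semaglutide against calorie restriction gave 6 lower genes and 0 higher, at a background of 3.07% lower and 3.05% higher. The 6 were Insig2, Srebf2, Hsd17b7, Hmgcs1, Mvd and Sqle. No gene was higher at an unadjusted p under 0.05 or in DESeq2 or limma-voom. Without Calorie restricted 79, 4 of the 6 were lower and 0 were higher, at a background of 2.21% lower and 2.15% higher, and the median log2 fold change moved from -0.94 to -0.51. The count rested on other livers as well: it was 12 without Calorie restricted 52, the liver with the lowest level of its group for 20 of the 27 genes, and 3 without Semaglutide 31.

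Dicretin against Semaglutide compares the agonists directly. Doses are not given, so the values are those of the regimens used. Of the 27 genes, 6 were lower in Dicretin (Hmgcs1, Fdft1, Msmo1, Sc5d, Insig1 and Stard4) and 3 were higher (Pmvk, Hsd17b7 and Insig2), at a background of 17.1% lower and 14.8% higher. The share lower was 22.2% and the share higher 11.1%, both near the background. The comparisons share groups, so their calls are not independent of each other.

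**Figure D2:**
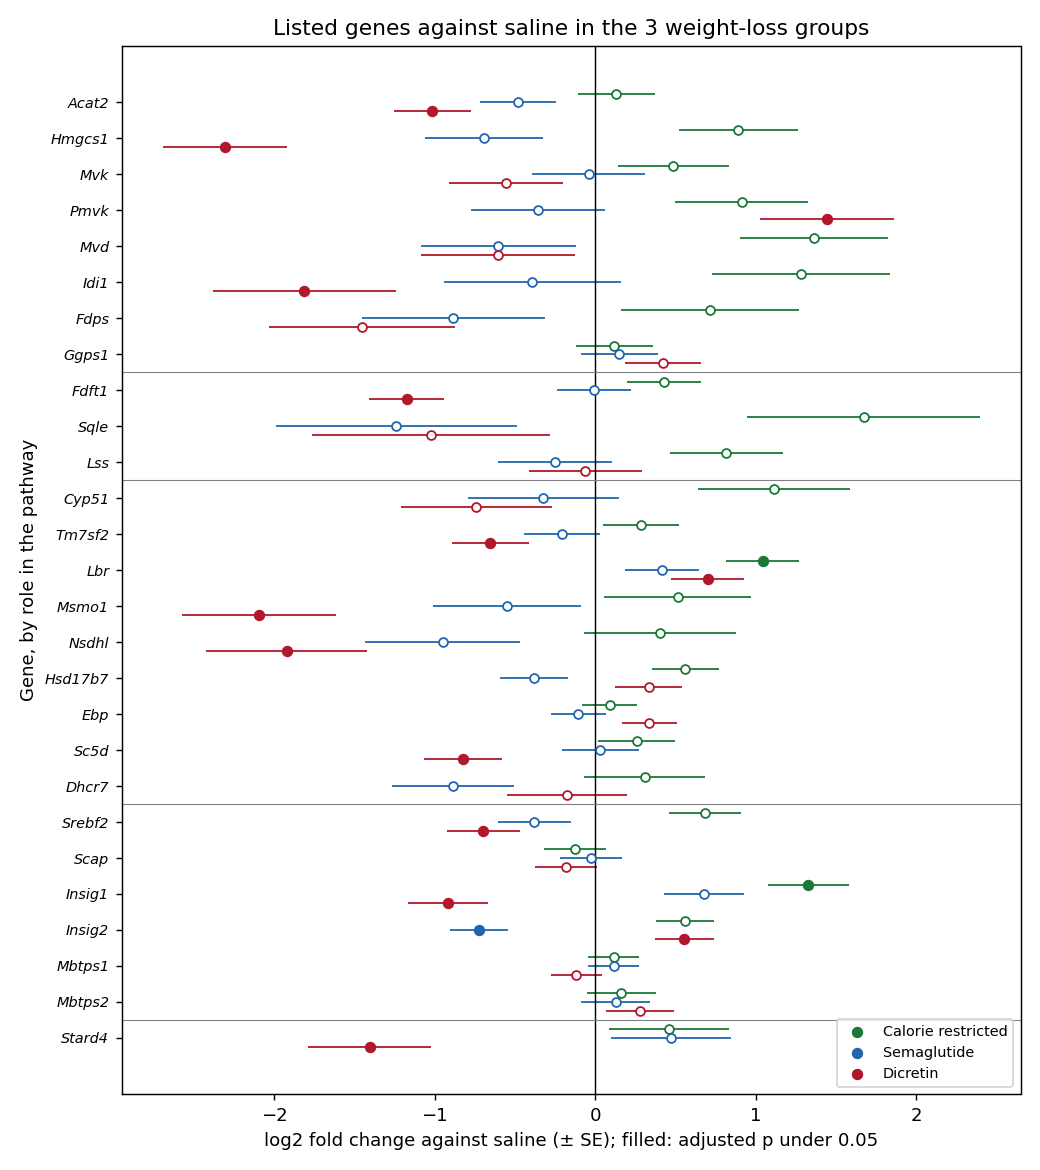
Points show the log2 fold change against saline (horizontal axis) of each of the 27 genes (vertical axis, by role) in calorie restriction, Semaglutide and Dicretin, with bars of 1 SE and filled points for an adjusted p under 0.05. Hmgcs1 reaches -2.31 in Dicretin and 0.89 in calorie restriction, and Insig2 lies at 0.56 in Dicretin and at -0.73 in Semaglutide.

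The mevalonate steps open with Acat2, which joins acetyl-CoA units, and Hmgcs1, the synthase that makes HMG-CoA. In order of label number, Hmgcs1 was at 222, 217, 188 and 128 CPM in saline, 207, 218, 193 and 784 in calorie restriction, 151, 115, 83.7 and 118 in Semaglutide, and 46.9, 45.2, 30.8 and 29.4 in Dicretin. All 4 Dicretin livers lay below every other liver of the study, and Calorie restricted 79 lay far above the rest. Hmgcs1 fell by 2.31 ± 0.39 on the log2 scale in Dicretin against saline (adjusted p = 0.000179, edgeR's quasi-likelihood test). Against calorie restriction the difference was -3.20 ± 0.40, or -2.44 ± 0.23 without Calorie restricted 79, and against Semaglutide it was -1.62 ± 0.38 (adjusted p = 1.21e-05, 6.95e-07 and 0.00341). Semaglutide against saline gave -0.69 ± 0.37 (adjusted p = 0.324). Against calorie restriction it gave -1.59 ± 0.38 (adjusted p = 0.0181), or -0.82 ± 0.22 without that liver (adjusted p = 0.043). The Semaglutide call against calorie restriction was lost in 4 of 23 alternative analyses, among them those without Semaglutide 11 or Semaglutide 31. The exons of Hmgcs1 overlap those of Gm48342 on the opposite strand by 557 bases, and the strand setting of the counting is not known.

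Acat2 was at 55.0, 70.8, 68.3 and 47.9 CPM in saline, 63.6, 63.9, 43.4 and 94.4 in calorie restriction, 59.2, 42.9, 34.0 and 37.4 in Semaglutide, and 39.9, 33.4, 26.1 and 20 in Dicretin. The Dicretin values lay below all saline and calorie-restricted values and overlapped those of Semaglutide. Acat2 fell by 1.02 ± 0.24 against saline (adjusted p = 0.00297) and by 1.15 ± 0.24 against calorie restriction (adjusted p = 0.00152), or 0.93 ± 0.24 without Calorie restricted 79. The close copy Acat3 could take part of its reads.

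Mevalonate is phosphorylated by Mvk and then by Pmvk, and the product is decarboxylated by Mvd. Pmvk was at 25.7, 29.3, 23.0 and 22.3 CPM in saline, 52.7, 39.0, 21.6 and 76.0 in calorie restriction, 29.9, 19.9, 12.4 and 16.3 in Semaglutide, and 138, 39.8, 33.5 and 62.0 in Dicretin. Every Dicretin liver lay above every saline and Semaglutide liver, with Dicretin 14 highest, while the calorie-restricted livers overlapped all other groups. Pmvk was higher in Dicretin by 1.44 ± 0.42 against saline (adjusted p = 0.0125) and by 1.80 ± 0.42 against Semaglutide (adjusted p = 0.00375). Without Dicretin 14 the difference from saline was 0.86 (adjusted p = 0.0613), so that call rested on this liver. Pmvk is the only enzyme of the mevalonate and isoprenoid steps that passed as higher in either of these comparisons.

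Mvk was at 10.5, 13.7, 8.44 and 10.6 CPM in saline, 10.4, 12.2, 7.17 and 31.0 in calorie restriction, 14.2, 10.2, 6.48 and 11.2 in Semaglutide, and 10.1, 6.02, 6.37 and 6.75 in Dicretin. Apart from Calorie restricted 79, the groups overlapped. Dicretin against saline gave -0.56 ± 0.36 (adjusted p = 0.233). Against calorie restriction Mvk was lower by -1.04 ± 0.36 (adjusted p = 0.0315), and without Calorie restricted 79 the difference was -0.43 ± 0.27 and did not pass (adjusted p = 0.255). It also failed with limma-voom, without the count filter, with only the 2 groups compared and without Dicretin 23, 64 or 65.

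Mvd was at 6.46, 8.14, 3.27 and 2.4 CPM in saline, 12.3, 11.0, 4.66 and 24.9 in calorie restriction, 4.95, 4.42, 1.23 and 2.94 in Semaglutide, and 4.23, 4.25, 2.24 and 2.6 in Dicretin. Each calorie-restricted liver but Calorie restricted 52 lay above every liver of the other groups. Against calorie restriction Mvd was lower by -1.97 ± 0.48 in Dicretin (adjusted p = 0.00444) and by -1.97 ± 0.48 in Semaglutide (adjusted p = 0.0202). Without Calorie restricted 79 these became -1.47 ± 0.46 (adjusted p = 0.025) and -1.46 ± 0.46 (adjusted p = 0.0824), so the Semaglutide call was lost. Against saline, Mvd did not pass in any group.

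Idi1 isomerises the first isoprenoid unit, Fdps lengthens the chain to farnesyl diphosphate, and Ggps1 adds a further unit for protein prenylation. Idi1 ranged between 56.0 and 91.4 CPM in saline, between 54.7 and 434 in calorie restriction, between 25.0 and 94.7 in Semaglutide and between 10.4 and 36.5 in Dicretin. Its Dicretin range did not reach that of saline or calorie restriction. Idi1 fell by 1.81 ± 0.57 against saline in Dicretin (adjusted p = 0.0213). That call was lost without Dicretin 64 or Dicretin 65 (adjusted p = 0.054 and 0.0653) and without the count filter (adjusted p = 0.0754). Against calorie restriction Idi1 was lower in Dicretin by -3.10 ± 0.60 (adjusted p = 0.00113), or -2.25 ± 0.45 without Calorie restricted 79. Fdps ranged from 6.04 to 16.4 CPM in saline and from 1.04 to 8.52 in Dicretin, with a difference of -1.45 ± 0.58 that just missed the threshold (adjusted p = 0.0612) and passed in 7 of 23 alternative analyses. Against calorie restriction Fdps was lower in Dicretin by -2.17 ± 0.59 (adjusted p = 0.0107), or -1.66 ± 0.55 without that liver (adjusted p = 0.0371). The exons of Fdps overlap those of Gm43738 by 1124 bases on the same strand, so its level is uncertain. Ggps1 ranged only from 3.15 to 7.71 CPM over all 16 livers and passed in no comparison.

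Squalene is made by Fdft1 from farnesyl diphosphate, oxidised by Sqle and closed to lanosterol by Lss. The group's members differed. Fdft1 was at 105, 107, 99.9 and 92.3 CPM in saline, 113, 119, 86.6 and 224 in calorie restriction, 123, 107, 91.8 and 80.3 in Semaglutide, and 47.1, 57.8, 37.0 and 37.0 in Dicretin. All Dicretin livers lay below all 12 others. Fdft1 fell in Dicretin by 1.17 ± 0.23 against saline, 1.60 ± 0.24 against calorie restriction and 1.17 ± 0.23 against Semaglutide (adjusted p = 0.000749, 5.52e-05 and 0.000896), and Semaglutide against saline gave -0.01 ± 0.23. The second difference was -1.25 ± 0.18 without Calorie restricted 79. Its exons overlap those of Ctsb on the opposite strand by 774 bases, so part of its counts could belong to Ctsb if strand was not used.

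Sqle was at 12.6, 21.1, 11.98 and 8.02 CPM in saline, 28.7, 26.1, 5.6 and 112 in calorie restriction, 9.97, 6.77, 2.85 and 3.38 in Semaglutide, and 13.7, 6.47, 4.27 and 1.56 in Dicretin. No group was clear of the others, and calorie restriction spanned a 20-fold range. Against saline, Sqle did not pass in any group. It was lower than in calorie restriction by -2.70 ± 0.76 in Dicretin (adjusted p = 0.014) and -2.91 ± 0.77 in Semaglutide (adjusted p = 0.036). Without Calorie restricted 79 these were -1.60 ± 0.62 and -1.81 ± 0.63, and neither passed (adjusted p = 0.0732 and 0.128). The Semaglutide call was lost in 12 of 23 alternative analyses.

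Lss was at 29.5, 31.99, 27.6 and 19.7 CPM in saline, 49.3, 35.6, 21.8 and 85.4 in calorie restriction, 22.8, 28.5, 11.9 and 28.4 in Semaglutide, and 41.5, 23.96, 20.1 and 18.5 in Dicretin. The groups overlapped, and Lss passed in no comparison. In Dicretin against saline its difference was -0.06, with an approximate 95% interval of -0.83 to 0.71.

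The steps from lanosterol to cholesterol remove methyl groups and move double bonds. Cyp51 removes the first methyl group, Msmo1 and Nsdhl with Hsd17b7 remove the others, and Ebp, Sc5d and Dhcr7 act late. Msmo1 was at 107, 94.0, 98.3 and 71.0 CPM in saline, 83.7, 97.8, 49.8 and 297 in calorie restriction, 106, 70.4, 26.1 and 50.1 in Semaglutide, and 23.6, 22.1, 25.8 and 14.8 in Dicretin. The 4 Dicretin livers were the lowest of the 16. Msmo1 fell by 2.097 ± 0.48 against saline, 2.61 ± 0.49 against calorie restriction and 1.55 ± 0.48 against Semaglutide (adjusted p = 0.00302, 0.000865 and 0.0205). Without Calorie restricted 79 the second difference was -1.83 ± 0.34. The difference from Semaglutide did not pass without Semaglutide 11, Dicretin 14 or Dicretin 65, or without the count filter.

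Nsdhl was at 39.3, 48.6, 36.2 and 25.3 CPM in saline, 38.8, 39.6, 15.5 and 104 in calorie restriction, 26.2, 23.8, 10.4 and 17.1 in Semaglutide, and 15.6, 12.7, 5.96 and 4.68 in Dicretin. Dicretin lay below saline in every liver and overlapped calorie restriction at Calorie restricted 52. Nsdhl fell by 1.92 ± 0.50 against saline (adjusted p = 0.00682) and by 2.33 ± 0.51 against calorie restriction (adjusted p = 0.00256), which became -1.66 ± 0.40 without Calorie restricted 79 (adjusted p = 0.00579). Against Semaglutide the difference was -0.97 ± 0.49 and did not pass (adjusted p = 0.15).

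Sc5d, which sets a double bond late in the pathway, was at 400.4, 468, 378 and 344 CPM in saline, 498, 451, 354 and 601 in calorie restriction, 529.9, 458, 287 and 351 in Semaglutide, and 259, 318, 132 and 188 in Dicretin. Dicretin was below saline and calorie restriction in every liver and overlapped Semaglutide 31. Sc5d fell by 0.83 ± 0.24 against saline, 1.08 ± 0.24 against calorie restriction and 0.86 ± 0.24 against Semaglutide (adjusted p = 0.0121, 0.00246 and 0.011). The difference from calorie restriction was -0.95 without Calorie restricted 79. The call against Semaglutide was lost when only the 2 groups compared were fitted (adjusted p = 0.0529, same test).

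Tm7sf2 and Lbr encode the reductases that can carry out the same step, reduction of the sterol C14 double bond, and Lbr also anchors chromatin to the inner nuclear membrane. Tm7sf2 was at 55.1, 66.1, 68.4 and 79.0 CPM in saline, 82.2, 83.2, 54.4 and 107 in calorie restriction, 90.2, 55.2, 38.7 and 48.2 in Semaglutide, and 53.2, 45.6, 40.5 and 31.0 in Dicretin. Lbr was at 3.82, 4.25, 3.95 and 3.56 CPM in saline, 8.47, 5.8, 7.69 and 10.2 in calorie restriction, 6.08, 5.11, 4.02 and 5.63 in Semaglutide, and 8.46, 5.26, 4.34 and 7.27 in Dicretin. For Lbr every calorie-restricted and Dicretin liver was above every saline liver, while for Tm7sf2 every Dicretin liver was below every saline liver. In Dicretin against saline Tm7sf2 fell by 0.66 ± 0.24 (adjusted p = 0.0395) and Lbr rose by 0.70 ± 0.23 (adjusted p = 0.0228). Both calls against saline were fragile: that of Tm7sf2 was lost in 8 of 23 alternative analyses and that of Lbr in 4. Against calorie restriction Tm7sf2 was lower in Dicretin by -0.94 ± 0.24 (adjusted p = 0.0064), or -0.78 ± 0.25 without Calorie restricted 79 (adjusted p = 0.0282). That call was lost in 0 of 23 alternatives. Lbr also rose in calorie restriction, by 1.04 ± 0.23 (adjusted p = 0.00909), or 0.91 ± 0.24 without Calorie restricted 79 (adjusted p = 0.0352). Per kb of exon in saline, Tm7sf2 was at 15.2 CPM and Lbr at 0.818 CPM. The exons of Tm7sf2 overlap Vps51 by 532 bases on the same strand and those of Lbr overlap Dnah14 by 440 bases on the opposite strand, so these levels are uncertain.

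Hsd17b7 ranged between 35.1 and 43.1 CPM in saline, between 42.0 and 87.8 in calorie restriction, between 22.6 and 39.2 in Semaglutide and between 40 and 63.4 in Dicretin. The Semaglutide range did not reach those of calorie restriction and Dicretin. It was lower in Semaglutide than in calorie restriction by -0.94 ± 0.21 (adjusted p = 0.012), or -0.69 ± 0.19 without Calorie restricted 79 (adjusted p = 0.0459), and higher in Dicretin than in Semaglutide by 0.71 ± 0.21 (adjusted p = 0.0142). Cyp51 passed only in Dicretin against calorie restriction, at -1.86 ± 0.48 (adjusted p = 0.00855) or -1.22 ± 0.40 without Calorie restricted 79 (adjusted p = 0.0316). Ebp and Dhcr7 passed in no comparison. In Dicretin against saline their differences were 0.34 ± 0.17 and -0.18 ± 0.38.

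Averaged over the 20 enzymes, the log2 level relative to the saline mean was -0.18, -0.55, -1.06 and -1.16 in Dicretin 14, 23, 64 and 65. It was 0.07, -0.20, -1.08 and -0.51 in Semaglutide 11, 15, 31 and 51, and 0.50, 0.41, -0.32 and 1.46 in Calorie restricted 7, 8, 52 and 79. The saline livers ranged from -0.30 to 0.26. Dicretin 14, Semaglutide 11 and Semaglutide 15 lay within the saline range and Semaglutide 31 lay as low as the lowest Dicretin livers, so the mean over the enzymes overlapped between Dicretin and the other groups, which the level of Hmgcs1 did not. Semaglutide 31 was the lowest of its group for 19 of the 20 enzymes and Dicretin 65 for 11 of them.

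**Figure D3:**
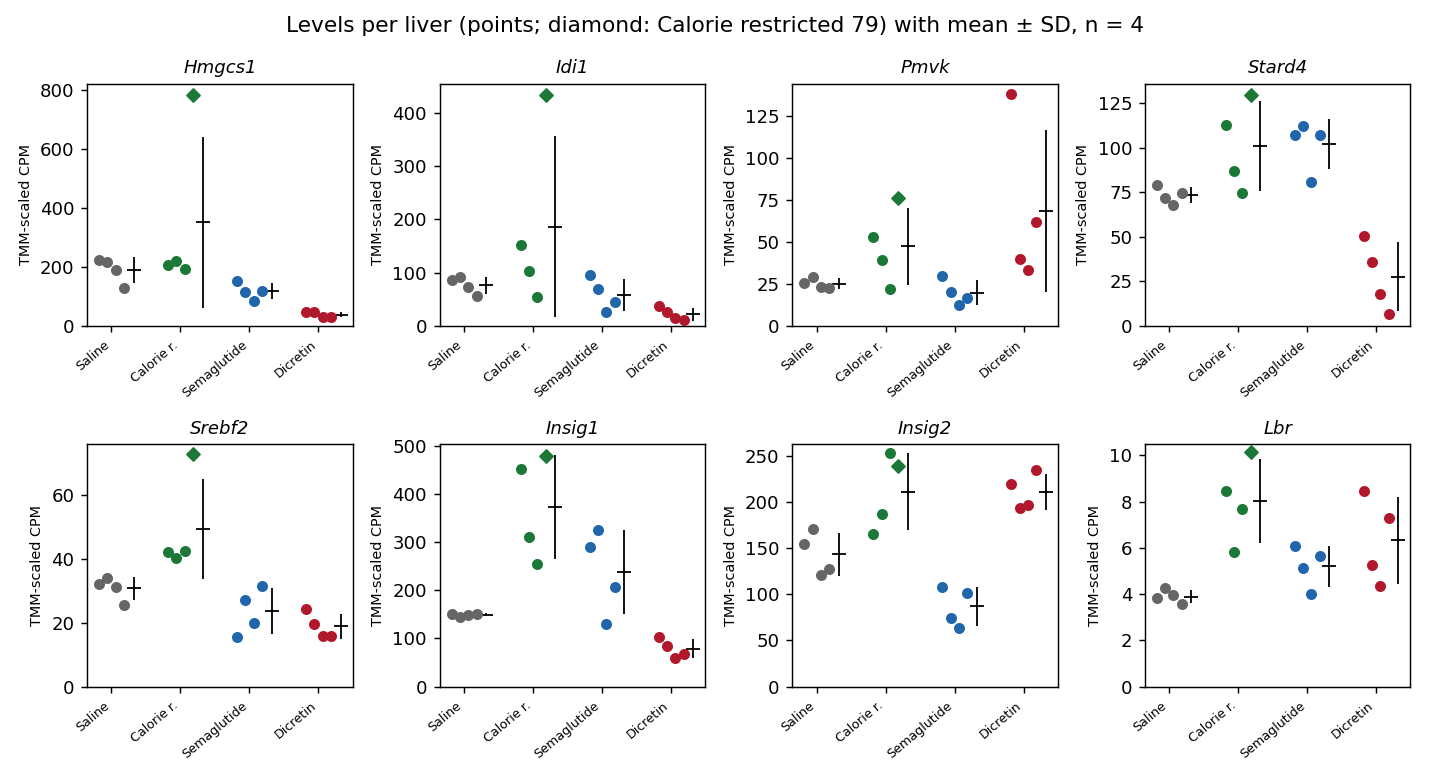
Points show TMM-scaled CPM (vertical axes from 0) of 8 genes in each liver of the 4 groups, with the mean ± SD (n = 4) beside them and a diamond for Calorie restricted 79. In Hmgcs1, Idi1 and Srebf2 the diamond lies above all other livers, and Insig1 and Insig2 show opposite orders for Semaglutide and Dicretin.

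Srebf2, which encodes SREBP2 and is itself one of its targets, was at 32.2, 34.0, 31.1 and 25.6 CPM in saline, 42.0, 40.2, 42.4 and 73.0 in calorie restriction, 15.6, 27.3, 20.02 and 31.6 in Semaglutide, and 24.2, 19.7, 15.9 and 15.8 in Dicretin. Calorie restriction was above all other livers and Dicretin below all saline livers. In Dicretin Srebf2 fell by 0.70 ± 0.23 against saline (adjusted p = 0.0222) and by 1.38 ± 0.23 against calorie restriction (adjusted p = 0.000185), or 1.13 ± 0.21 without Calorie restricted 79. In Semaglutide it was lower than in calorie restriction by -1.06 ± 0.23 (adjusted p = 0.00895), or -0.81 ± 0.21 without Calorie restricted 79 (adjusted p = 0.0354). The rise in calorie restriction over saline, 0.68 ± 0.23, did not pass (adjusted p = 0.0704). The call against saline in Dicretin was lost without Saline control 35, Saline control 50, Dicretin 64 or Dicretin 65.

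Insig1 and Insig2 encode the related proteins that retain SCAP in the endoplasmic reticulum. Insig1 is a well-known SREBP target, and the liver form of Insig2 is known to be lowered by insulin. Insig1 was at 151, 144, 149 and 151 CPM in saline, 451, 309.7, 255 and 478 in calorie restriction, 290.5, 326, 130.2 and 206 in Semaglutide, and 103, 85.1, 59.4 and 67.6 in Dicretin. Every calorie-restricted liver was above saline and every Dicretin liver below it, and Semaglutide overlapped saline through Semaglutide 31. Insig1 rose by 1.33 ± 0.25 in calorie restriction (adjusted p = 0.00341), or 1.19 ± 0.26 without Calorie restricted 79 (adjusted p = 0.0138), and fell by 0.92 ± 0.25 in Dicretin (adjusted p = 0.00803). Dicretin was lower than calorie restriction by -2.25 ± 0.26 (adjusted p = 4e-06), or -2.105 ± 0.27 without that liver, and lower than Semaglutide by -1.60 ± 0.26 (adjusted p = 0.00011). Semaglutide against saline gave 0.68 ± 0.25, which did not pass (adjusted p = 0.14).

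Insig2 was at 155, 171, 121 and 128 CPM in saline, 166, 187, 253 and 239.7 in calorie restriction, 108, 74.5, 63.7 and 102 in Semaglutide, and 219.6, 194, 196 and 235 in Dicretin. The 4 Semaglutide livers were the lowest of the 16, and the 4 Dicretin livers were above all saline livers. Insig2 fell by 0.73 ± 0.18 in Semaglutide (adjusted p = 0.0299) and rose by 0.56 ± 0.18 in Dicretin (adjusted p = 0.0224), and the agonists differed by 1.28 ± 0.18 (adjusted p = 3.83e-05). The rise in Dicretin did not pass without Saline control 73, Saline control 78 or Dicretin 65. The fall in Semaglutide was lost in 5 of 23 alternative analyses. These were the fits without Saline control 35, Saline control 50, Semaglutide 15 or Semaglutide 31, or with only the 2 groups compared. Dicretin and calorie restriction differed by -0.001, with an approximate 95% interval of -0.40 to 0.39, and Semaglutide was lower than calorie restriction by -1.28 ± 0.18 (adjusted p = 0.000371), or -1.22 ± 0.20 without Calorie restricted 79 (adjusted p = 0.00147). Thus Insig1 and Insig2 moved in opposite directions in Dicretin against both saline and Semaglutide.

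Scap, which encodes the escort, and Mbtps1 and Mbtps2, which encode the Golgi proteases, passed in no comparison. In Dicretin against saline their differences were -0.18 ± 0.19, -0.12 ± 0.16 and 0.28 ± 0.21. The approximate 95% intervals were -0.60 to 0.23, -0.47 to 0.23 and -0.19 to 0.74, and differences within them could not be told from 0 with 4 livers a group. Exons of Mbtps2 overlap Yy2 by 2867 bases on the same strand and those of Scap overlap an opposite-strand gene by 985 bases.

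Stard4, a soluble carrier that moves cholesterol between membranes, was at 78.8, 71.9, 67.9 and 74.5 CPM in saline, 113, 86.8, 74.4 and 129.8 in calorie restriction, 107, 112, 81.0 and 107 in Semaglutide, and 50.2, 35.6, 17.7 and 6.5 in Dicretin. All 4 Dicretin livers lay below all others and spanned a 7.73-fold range. Stard4 fell by 1.41 ± 0.38 against saline, 1.87 ± 0.39 against calorie restriction and 1.88 ± 0.39 against Semaglutide (adjusted p = 0.00852, 0.0016 and 0.00136), and the second of these was -1.725 ± 0.41 without Calorie restricted 79. Semaglutide against calorie restriction gave 0.01 ± 0.37.

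Compared per kb of exon in saline, the most abundant of the 27 transcripts were Ebp at 101 CPM per kb, Sc5d at 81.8, Insig1 at 48.1, Insig2 at 41.4 and Hmgcs1 at 41.1. The least abundant were Mbtps2 at 0.636, Lbr at 0.818 and Ggps1 at 0.927. In Dicretin the level of Hmgcs1 was 8.29 CPM per kb and that of Insig1 25.5, while that of Insig2 was 60.8.

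**Figure D4:**
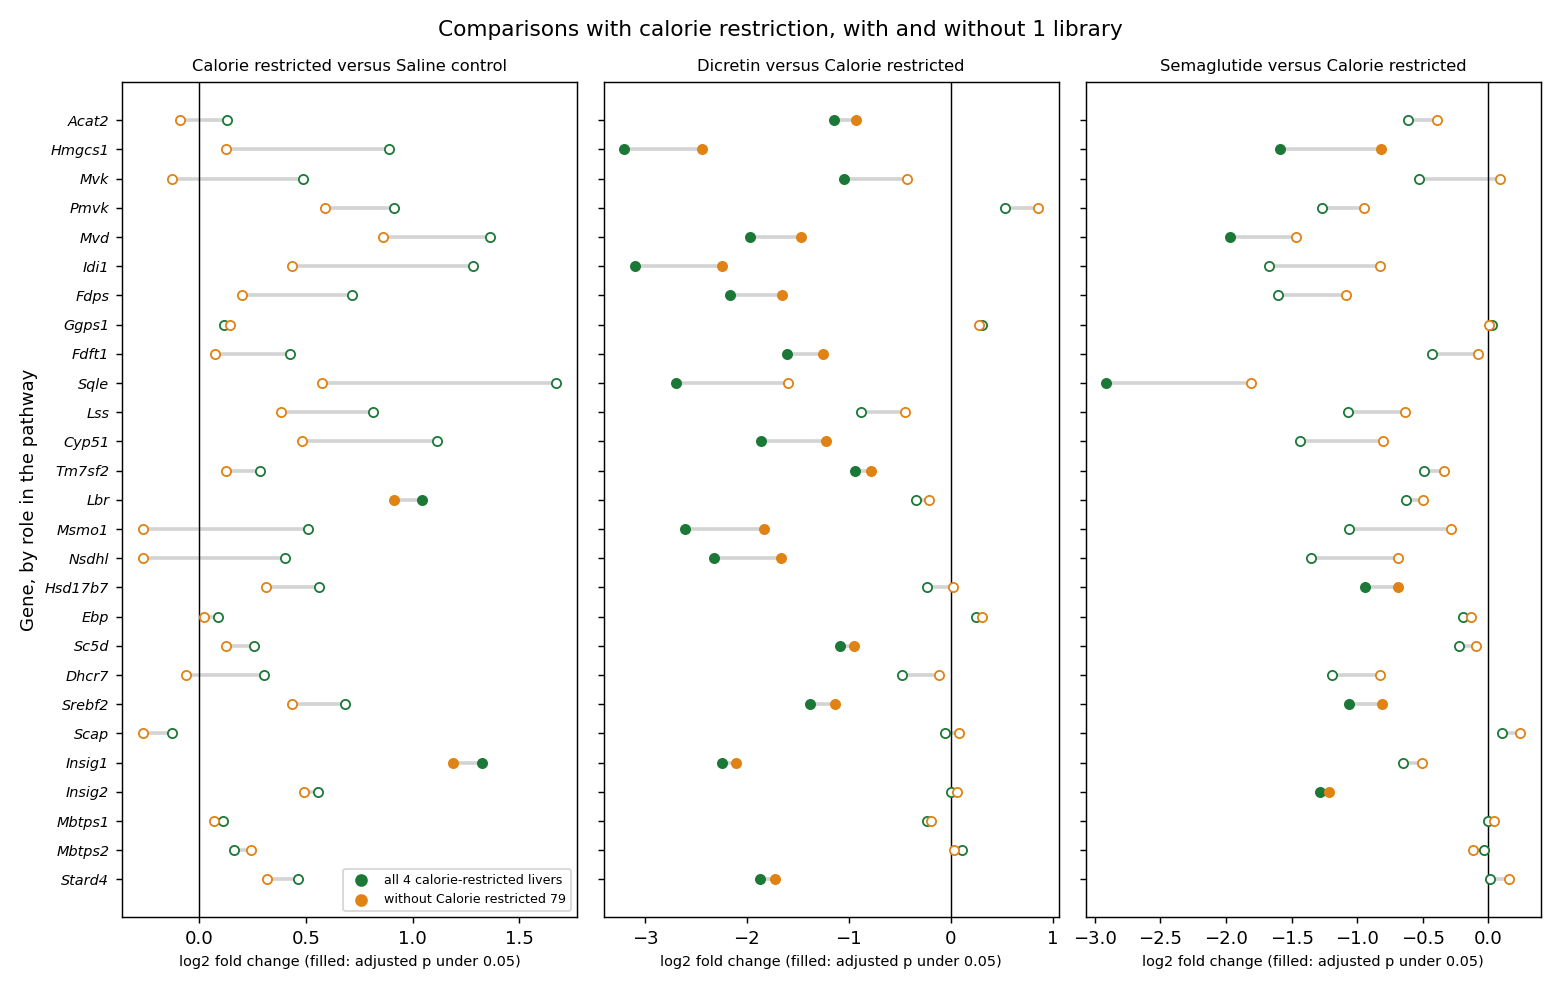
Each line joins the log2 fold change of a gene (vertical axis) with all 4 calorie-restricted livers to that without Calorie restricted 79, for the 3 comparisons with calorie restriction (horizontal axes, different scales), with filled points for an adjusted p under 0.05. Hmgcs1 moves from 0.89 to 0.13 against saline, while Insig1 moves from 1.33 to 1.19 and stays filled.

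Promoter sequences are shown for genes that differed in their response: Hmgcs1 and Insig1, which fell in Dicretin, Pmvk and Insig2, which rose, and Mvk, whose start lies 208 bases from that of the divergent gene Mmab. RefSeq windows on GRCm38.p6, from 250 bases before to 50 after each start, were available for 23 of the 27 genes (not for Fdps, Fdft1, Sqle and Stard4). Part of each window is printed 5′ to 3′ on the strand of its gene, and capitals mark matches on either strand to the sterol regulatory element core TCACNCCAC, its shorter form CACNCCAC, the CCAAT box CCAAT and the GC box GGGCGG. Hmgcs1 lies at chr13:119690171-119690350 (plus strand), Insig1 at chr5:28071162-28071362 (plus), Mvk at chr5:114444089-114444268 (plus), Pmvk at chr3:89454391-89454540 (plus) and Insig2 at chr1:121332590-121332739 (minus, the most upstream of its 3 windows).
Hmgcs1: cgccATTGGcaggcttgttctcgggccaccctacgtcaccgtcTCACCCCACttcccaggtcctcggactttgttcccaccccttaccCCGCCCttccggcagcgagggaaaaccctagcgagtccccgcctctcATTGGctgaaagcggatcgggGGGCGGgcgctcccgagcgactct
Insig1: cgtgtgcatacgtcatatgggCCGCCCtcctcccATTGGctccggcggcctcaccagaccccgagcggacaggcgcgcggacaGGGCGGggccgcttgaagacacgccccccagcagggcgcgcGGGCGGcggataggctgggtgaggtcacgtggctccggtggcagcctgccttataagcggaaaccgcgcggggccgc
Mvk: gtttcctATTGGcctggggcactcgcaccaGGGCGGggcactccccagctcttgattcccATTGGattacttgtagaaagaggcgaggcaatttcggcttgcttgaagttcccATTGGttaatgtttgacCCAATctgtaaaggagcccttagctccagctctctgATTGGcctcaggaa
Pmvk: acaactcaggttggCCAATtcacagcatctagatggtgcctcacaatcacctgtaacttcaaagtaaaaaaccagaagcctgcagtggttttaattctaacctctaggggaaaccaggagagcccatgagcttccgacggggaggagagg
Insig2: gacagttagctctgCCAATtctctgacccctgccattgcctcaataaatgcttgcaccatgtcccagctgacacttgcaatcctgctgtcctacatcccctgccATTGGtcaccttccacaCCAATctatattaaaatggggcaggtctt
The stretch printed for Hmgcs1 holds the core as TCACCCCAC, 137 bases before the start, with CCAAT boxes on the reverse strand on both sides of it. The other printed stretches hold neither form, and the match to the shorter form in the Insig1 window, read on the reverse strand 9 bases before the start, lies outside the stretch printed. The shorter form lies inside the core, so a match to the core counts for both.

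Over all 26994 genes with a RefSeq window, 1.4% held the core, 7.1% the shorter form, 41.0% a CCAAT box and 38.2% a GC box. Of the 23 listed genes with a window, 1 held the core (Hmgcs1), 3 the shorter form (Acat2, Hmgcs1 and Insig1), 19 a CCAAT box and 20 a GC box, that is 82.6% and 87.0% for the last pair of motifs. A gene with several windows counts once, whichever window holds the match. The shares over all genes with a window include genes not tested in liver, and shares over the tested genes alone were not computed. These matches describe letters only.

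The wider pathway was followed in 46 further genes, of which 45 were in the table and tested. In Dicretin against saline 14 were lower (31.1%, beside 19.2% of all genes tested) and 8 higher (17.8%, beside 17.5%), with a median of 0.09. Of the 8 electron donors and chaperones of the sterol enzymes 5 were lower, and of the 9 genes of sterol sensing and protein degradation in the endoplasmic reticulum 1 was lower and 3 were higher. Semaglutide against saline gave 1 higher (2.22%, beside 1.56%), and calorie restriction against saline 4 higher (8.89%, beside 3.42%) and 1 lower (2.22%, beside 4.11%). These counts include Calorie restricted 79. Dicretin against calorie restriction gave 15 lower (33.3%, beside 16.2%) and 9 higher (20%, beside 15.1%). Semaglutide against calorie restriction gave 4 lower (8.89%, beside 3.07%) and 1 higher (2.22%, beside 3.05%), and Dicretin against Semaglutide 11 lower (24.4%, beside 17.1%) and 8 higher (17.8%, beside 14.8%). Rises in Dicretin against saline were at the background.

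The smallest adjusted p in Dicretin against saline was that of Ube2g2, a ubiquitin-conjugating enzyme of the endoplasmic reticulum degradation machinery, at 56.7, 53.5, 52.9 and 55.9 CPM in Dicretin and 17.2 to 22.9 CPM in saline. It rose by 1.47 ± 0.13 (adjusted p = 8.91e-08), and by 0.64 ± 0.13 in calorie restriction (adjusted p = 0.00398). Erg28, a scaffold of the sterol demethylation enzymes, fell by 1.56 ± 0.22 in Dicretin (adjusted p = 2.22e-05), and Stard5, a sterol-binding relative of Stard4, by 1.16 ± 0.17 (adjusted p = 4.14e-05). Mmab, an enzyme of cobalamin metabolism that is read divergently from Mvk, fell by 1.23 ± 0.26 (adjusted p = 0.00128), where Mvk itself did not pass. Aacs, which makes cytosolic acetoacetyl-CoA for this pathway and was picked after its values were seen, ranged from 98.6 to 128 CPM in saline and from 3.2 to 11.8 in Dicretin, a difference of -4.09 ± 0.58 (adjusted p = 6.15e-05).

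Soat2, which esterifies cholesterol in hepatocytes, separated the agonists. It was at 33.5, 29.4, 35.9 and 35.4 CPM in saline, 34.6, 32.2, 35.0 and 43.8 in calorie restriction, 67.3, 53.1, 65.4 and 59.4 in Semaglutide, and 20.5, 13.0, 15.2 and 19.7 in Dicretin. All Semaglutide livers lay above and all Dicretin livers below every other liver. Soat2 rose by 0.87 ± 0.15 in Semaglutide against saline (adjusted p = 0.0031), fell by 0.97 ± 0.16 in Dicretin (adjusted p = 0.000107), and differed by -1.84 ± 0.16 between them (adjusted p = 1.09e-07).

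Of the 27 genes, 7 passed in none of the 6 comparisons: Dhcr7, Ebp, Ggps1, Lss, Mbtps1, Mbtps2 and Scap.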

How the data were processed

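The authors deposited whole-number counts of reads per gene for 16 livers, raw and not normalized. RNA came from frozen liver by Trizol, and directional libraries were made from poly(A) RNA, per the labels' protocols. The tools TopHat2 2.1.1 and featureCounts and the genome build mm10 appear, per the submitters' processing notes. Strand setting, annotation release and featureCounts version are not given in the sources used here.

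Symbols and exon lengths came from the GENCODE annotation of GRCm38. In R 4.3.3, edgeR 4.0.16 filtered genes with filterByExpr, scaled libraries by TMM and fitted all 16 libraries with 1 mean per group (glmQLFit, robust; common biological coefficient of variation 0.24). Each of the 6 comparisons was tested with glmQLFTest and Benjamini-Hochberg adjustment over the genes tested in that comparison, with no adjustment across comparisons. The SE was the absolute log2 fold change divided by the square root of F, and approximate 95% intervals used 12 residual degrees of freedom. Log2 CPM used a prior count of 2. The labels give no batch or pairing, so no covariate was used. The 16 samples carry different numbers and are read here as 16 separate animals, though the labels do not say so outright for each. The p-values measure only the spread between these samples, which may be partly technical.

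As alternatives, TMM was replaced by upper quartile or DESeq2 1.42.0 size factors, the test by limma-voom (limma 3.58.1) or the Wald test of DESeq2, and the filter by none or by 1 CPM in at least 4 libraries; fits also used only the 2 groups compared or left out each library in turn. Scripts were tested on simulated counts.

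The 27 genes and all other lists were chosen with earlier results of these data known. Library values were printed for up to 3 genes per role with the smallest adjusted p in Dicretin against saline, for genes called in Semaglutide or calorie restriction against saline, for Insig1 and Insig2, for Tm7sf2 and Lbr, and where leaving out Calorie restricted 79 changed a call. For the wider pathway up to 3 genes with the smallest p per comparison could be named, with Mmab fixed as the neighbour of Mvk. A gene that this rule picks is not reported here. Spring1 and Tf matched no symbol and were not used here.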

Additional observations from a re-analysis of the deposited data

Results flagged for a closer look

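In 6 of 108 groups of 4 livers (27 genes in 4 groups), the highest or lowest liver lay unusually far from the other 3 for the group's range; chance alone flags about 1 group in 20.

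Hmgcs1 was at 783.8 CPM in Calorie restricted 79 and at 193.3 to 218.1 CPM in the other calorie-restricted livers. Srebf2 was at 73.01 CPM in the same liver and at 40.18 to 42.4 CPM in the others. Saline control 78 was low for Cyp51, at 50.7 CPM beside 73.28 to 77.33, and for Dhcr7, at 32.59 CPM beside 49.4 to 52.83. It was high for Mbtps1, at 54.34 CPM beside 44.37 to 44.77. Stard4 was at 81.0 CPM in Semaglutide 31 and at 107.1 to 112.1 CPM in the other Semaglutide livers.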

How the results depend on the processing

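Across 23 alternatives no called gene reversed its direction. In Dicretin against saline 8 of 14 calls passed in every alternative, in Dicretin against calorie restriction 14 of 16, in Dicretin against Semaglutide 7 of 9, in Semaglutide against calorie restriction 3 of 6, in calorie restriction against saline 2 of 2, and in Semaglutide against saline 0 of 1. Without the count filter, 3 genes were lower in Semaglutide against calorie restriction. With only the 2 groups compared, 0 were lower in Semaglutide against saline and 5 higher in calorie restriction against saline, and the DESeq2 Wald test also gave 5; the cause was not tested. Leaving out each library in turn gave 1 to 3 higher and 8 to 12 lower genes in Dicretin against saline, 0 to 1 higher and 0 to 1 lower in Semaglutide against saline, 2 to 4 higher in calorie restriction against saline, 14 to 17 lower in Dicretin against calorie restriction, and 3 to 12 lower in Semaglutide against calorie restriction. In Dicretin against Semaglutide, Msmo1 lost its call in some of these fits, and Acat2, Ebp, Idi1 and Mbtps1 each passed in some. No paired analysis was possible because the groups share no label numbers. With 4 livers a group, genes whose SD is wide, such as Sqle and Fdps, were tested with SE of 0.55 to 0.77, and moderate changes in them would be missed.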
